A study of Mus musculus with 19 samples.

Results

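Elastic fibres give the aorta its recoil. Smooth muscle cells and fibroblasts secrete tropoelastin, the product of Eln, which is laid down on a scaffold of fibrillin microfibrils with the help of fibulins and is then fixed by the lysyl oxidases, copper enzymes that crosslink elastin and collagen. In the abdominal aorta, broken or poorly crosslinked elastic laminae are a hallmark of aneurysm, and loss of several of these genes is known to cause aortic disease. Described here are 10 genes of this system, chosen by name from the 20408 genes of the expression table: Eln (elastin), the microfibril genes Fbn1, Mfap4 and Mfap5, the assembly genes Fbln5, Efemp2 and Emilin1, and the crosslinking enzymes Lox, Loxl1 and Loxl2. All 10 were found, each in a single row, and all 10 were above the filter on low values.

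The study asked what the first 24 h of angiotensin II (Ang II), a pressor peptide that brings about aneurysms in ApoE-deficient mice, do to the suprarenal abdominal aorta (SRA), and whether IKKβ, the kinase encoded by Ikbkb that activates NF-κB, takes part. Poly(A) RNA of the SRA was sequenced from 19 male mice that received saline or Ang II by osmotic pump for 24 h: 5 saline-infused and 5 Ang II-treated IKKβ+/+ mice (the labels' wild type), and 4 saline-infused and 5 Ang II-treated IKKβ-/- mice (the labels' KO). Per the study's methods, all of the mice were ApoE-/- and carried SMA-CreERT2, a tamoxifen-inducible Cre driven by the Acta2 promoter, all received tamoxifen, and the IKKβ-/- mice also carried Ikkβ Flox/Flox. They were fed regular chow, and the labels give their age as 8 weeks. In the study's methods tamoxifen was given at that age and the pumps followed after a rest, so the mice were older when sampled. The labels give the dose of Ang II as 500 to 1000 ng/min/kg, while the study's methods name the upper value alone for these samples. The Cre acts in cells that use the Acta2 promoter, so the other cells of the wall kept Ikbkb.

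Each mouse had 11382573 to 19906694 reads on genes. Ikbkb itself, in normalized counts, had a mean of 533 ± 78.9 (SD, n = 9) across IKKβ-/- mice, beside 699.7 ± 66.8 (SD, n = 10) for the IKKβ+/+ mice (two-sided exact permutation test over mice, p = 0.000152), with 8 of 9 IKKβ-/- mice below the lowest IKKβ+/+ mouse. Markers of smooth muscle were abundant in every mouse, with a sum of 348464 to 705719 normalized counts over 10 genes. One library stood apart by markers of neurons: the Ang II-treated IKKβ+/+ mouse X2356 had a sum of 8091 normalized counts over 10 neuron and Schwann cell markers, beside 489 to 2546 in the others, with 825 of Th and 1674 of Dbh, enzymes of noradrenaline synthesis, and 862 of the neuronal tubulin Tubb3. Mouse X2350 of the same group had 98.5, 214 and 136 of these, and the remaining mice at most 7.99, 21.3 and 16.7. X2356 also had the lowest smooth muscle sum of its group (512107). Results that rest on X2356 are given with and without it, and the part of these markers in them was not tested. Mouse numbers run in a separate block per group and the labels name no batch. A batch and a group therefore cannot be told apart, and in a bulk sample fewer cells of a type and less RNA per cell cannot be told apart either.

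Of the 10 genes, Fbln5 and Fbn1 were the members that passed a test in at least 1 comparison, and the 250 bases before their RefSeq starts (GRCm38.p6) are shown because the results turn on them. RefSeq gave 2 starts for Fbln5. The first window is chr12:101819120-101819369 on the minus strand and ends at a start 64 bases upstream of the gene's bound in the expression table, and the second is chr12:101818485-101818734 and ends at a start 571 bases inside that bound. The Fbn1 window is chr2:125506439-125506688 on the minus strand and ends at a start 1555 bases inside the bound of that gene. Capitals mark the motif matches described after them.
Fbln5, first start: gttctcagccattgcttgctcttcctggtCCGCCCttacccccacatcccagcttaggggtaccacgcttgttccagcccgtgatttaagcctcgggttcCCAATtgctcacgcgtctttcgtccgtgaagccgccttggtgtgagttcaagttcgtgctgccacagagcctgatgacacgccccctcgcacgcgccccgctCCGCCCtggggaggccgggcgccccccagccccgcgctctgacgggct
Fbln5, second start: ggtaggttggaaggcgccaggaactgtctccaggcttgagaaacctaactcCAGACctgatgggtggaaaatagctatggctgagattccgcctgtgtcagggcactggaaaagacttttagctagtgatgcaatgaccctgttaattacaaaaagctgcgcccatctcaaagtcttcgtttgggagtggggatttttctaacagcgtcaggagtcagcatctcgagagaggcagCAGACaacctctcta
Fbn1: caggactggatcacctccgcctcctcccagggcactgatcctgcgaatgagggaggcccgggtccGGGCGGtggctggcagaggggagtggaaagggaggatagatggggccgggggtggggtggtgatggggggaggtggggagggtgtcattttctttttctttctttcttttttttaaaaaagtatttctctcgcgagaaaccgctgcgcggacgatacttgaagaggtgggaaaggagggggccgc
Both strands were searched for 9 motifs. The general promoter elements were the TATA box, read as TATAAA, the GC box of Sp1 and KLF proteins, read as GGGCGG, and the CCAAT box, read by those letters. The others were the AP-1 site bound by Fos and Jun, read as TGAGTCA, the cAMP response element bound by CREB, read as TGACGTCA, the E-box bound by clock proteins and others, read as CACGTG, the SMAD element of TGF-β signalling, read as CAGAC, the CArG box of serum response factor and the NF-κB site. This gave 3 matches before the first start of Fbln5, 2 before its second start and 1 before Fbn1. The first window had a GC box 221 and 48 bases and a CCAAT box 150 bases upstream of the start, counted to the match's first base, the second had the SMAD element at 199 and 15 bases, and Fbn1 had a GC box at 185 bases. A GC box was present in 32.7%, a CCAAT box in 33.9% and the SMAD element in 42.2% of the 32851 windows of this length in the same table, while the other 6 motifs were each present in 1.47% to 12.4% of them. Matches of this kind describe the letters of the window only. Windows of Efemp2 and Emilin1 were also in the table.

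Per kilobase of exon, Eln was the most abundant of the 10 genes in every mouse. Its level averaged 8060 normalized counts per kb over the 19 mice (SD 2302), it ranked 19 among all genes of the table by mean normalized count, and it took 0.196% to 0.712% of the reads of a mouse. Mfap4, whose protein binds elastin and collagen at the fibre, followed at 4543 per kb. Lox averaged 2211, Fbln5 1884 and Loxl1 1699 per kb, and these neighbours were not separated beyond their spread: Lox lay above Fbln5 in 12 of 19 mice and Fbln5 above Loxl1 in 10 of 19. Mfap5 (1089 per kb), Fbn1 (724), Emilin1 (489), Efemp2 (352) and Loxl2 (286) came below them. Each gene from Loxl1 to Efemp2 lay above the next of this order in at least 15 of 19 mice.

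The order among the middle genes differed between saline and Ang II. Fbln5 had rank 3 by its mean per kb in both saline groups and rank 5 in both Ang II groups, where Lox and Loxl1 lay above it. The number of Eln counts per kb for each Fbln5 count per kb was 2.66 to 4.98 in saline-infused and 4.25 to 11.6 in Ang II-treated IKKβ+/+ mice. The same ratio was 2.54 to 3.24 in saline-infused and 3.54 to 6.26 in Ang II-treated IKKβ-/- mice. The ranges did not overlap in IKKβ-/- mice. In IKKβ+/+ mice they overlapped through mouse X2356 alone, which had the lowest ratio of the Ang II-treated mice (4.25). All other Ang II-treated IKKβ+/+ mice lay above the saline-infused ones.

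**Figure D1:**
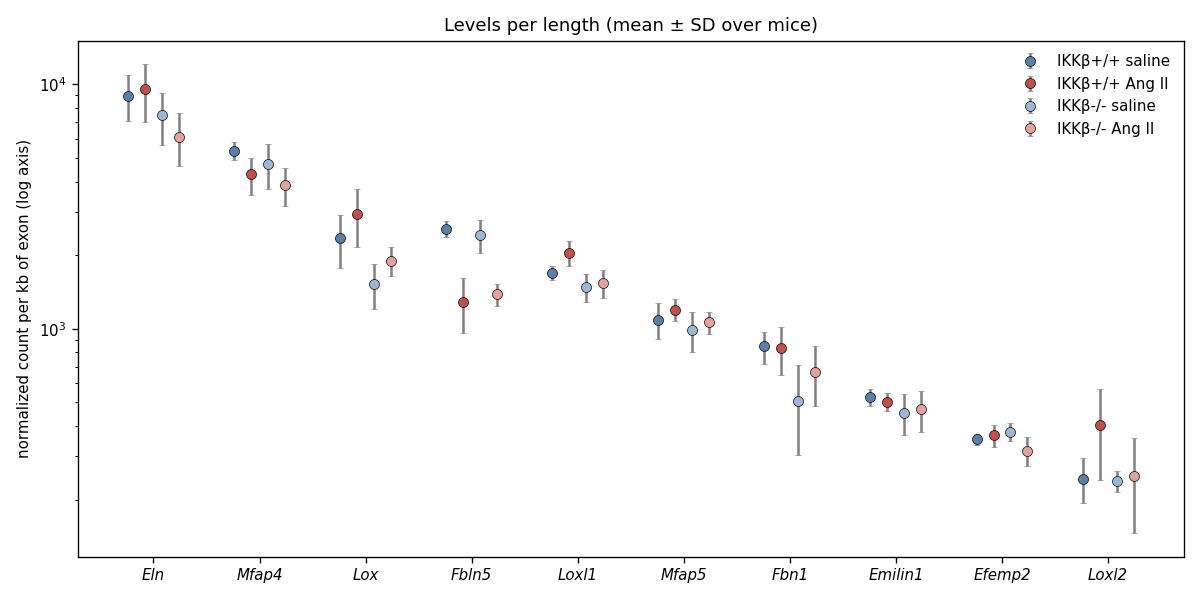
Level of each of the 10 genes in normalized counts per kb of exon (log axis), as the mean and SD over the mice of each of the 4 groups. Eln and Mfap4 lead in every group, and Fbln5 takes rank 3 with saline and rank 5 with Ang II.

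With Ang II in IKKβ+/+ mice, 1 of the 10 genes passed the test, and it was Fbln5. Fbln5 encodes fibulin-5, an extracellular protein that brings tropoelastin and Loxl1 to the microfibril. It was at 16168, 17963, 19795, 17162 and 17531 normalized counts in the 5 saline-infused mice and at 7631, 12676, 8843, 6827 and 8380.1 in the 5 Ang II-treated mice. The groups did not overlap, and the highest Ang II-treated mouse, X2352, still lay below the lowest saline-infused mouse. Fbln5 fell by 1.03 on the log2 scale (SE 0.145, 95% confidence interval -1.33 to -0.73, limma adjusted p = 0.000988), from 17724 ± 1334 (SD, n = 5) to 8872 ± 2260 (SD, n = 5). Fold changes here are of the value plus 1, and a gene was called with an adjusted p below 0.1 over all 14845 genes tested along with a fold change above 1.2. In this comparison 8.66% of all genes passed in either direction and 4.33% passed as lower, while 4.47% had groups that did not overlap with Ang II lower. By p, Fbln5 had rank 11 of all genes tested. Its decrease held without any 1 of the 10 mice and under each of the 12 other settings tried, with log2 changes of -1.05 to -0.89 over the settings.

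The scaffold genes gave no call in this comparison. Mfap4 was at 9279.7 to 11364 normalized counts with saline and 6231 to 9632 with Ang II, a log2 change of -0.34 (95% confidence interval -0.66 to -0.02, limma adjusted p = 0.215). Fbn1, which encodes the fibrillin that builds the microfibril, had a log2 change of -0.04 (-0.51 to 0.43), and Mfap5, a microfibril-associated glycoprotein, of 0.15 (-0.13 to 0.42). Eln was at 94366, 80611, 62688, 72034 and 54622 normalized counts with saline and at 94507, 82872, 44019, 92793 and 72963 with Ang II. These groups overlapped almost entirely, with a log2 change of 0.06 (-0.45 to 0.58, limma adjusted p = 0.92). Without mouse X2356, which had the lowest value (44019), the log2 change of Eln was 0.25 and did not pass either. The assembly genes Efemp2, which encodes fibulin-4, a partner of Lox, and Emilin1, an interface protein of elastin and microfibril, had log2 changes of 0.05 (-0.16 to 0.26) and -0.07 (-0.34 to 0.20). The intervals of Eln, Efemp2 and Emilin1 all span 0, and the wider one of Eln leaves room for larger changes of either sign.

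The 3 crosslinking enzymes had higher means with Ang II in IKKβ+/+ mice, without passing. Loxl2, an oxidase known mainly for crosslinking collagen IV, was at 1304, 1223, 1789.6, 1095 and 1175 normalized counts with saline and at 1995, 2018, 1229, 3627 and 2012 with Ang II. A single Ang II-treated mouse, X2356, lay within the saline range, and the other 4 were above all of it. The log2 change of Loxl2 was 0.66 (SE 0.24, 95% confidence interval 0.16 to 1.16, limma adjusted p = 0.118). Loxl1, which crosslinks elastin at sites marked by fibulin-5, was at 5763, 5529, 6089, 5306 and 5187 with saline and at 7472, 7318, 5535, 7059 and 6363 with Ang II. Again mouse X2356 was the only Ang II-treated mouse within the saline range, and the log2 change was 0.27 (0.04 to 0.50, limma adjusted p = 0.178). Lox overlapped between the groups, at 7517 to 13883 with saline and 9493 to 19156 with Ang II (log2 change 0.33, limma adjusted p = 0.373). Without mouse X2356, Loxl1 (log2 change 0.34, limma adjusted p = 0.0717) and Loxl2 (0.84, limma adjusted p = 0.0308) passed as higher, and the number of all genes passing went from 1286 to 1915. Loxl2 also passed with the edgeR quasi-likelihood test (adjusted p = 0.0987) and with DESeq2 (adjusted p = 0.0458) on the recovered reads. With these tests 1373 and 1887 of all genes passed, beside 1286.

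**Figure D2:**
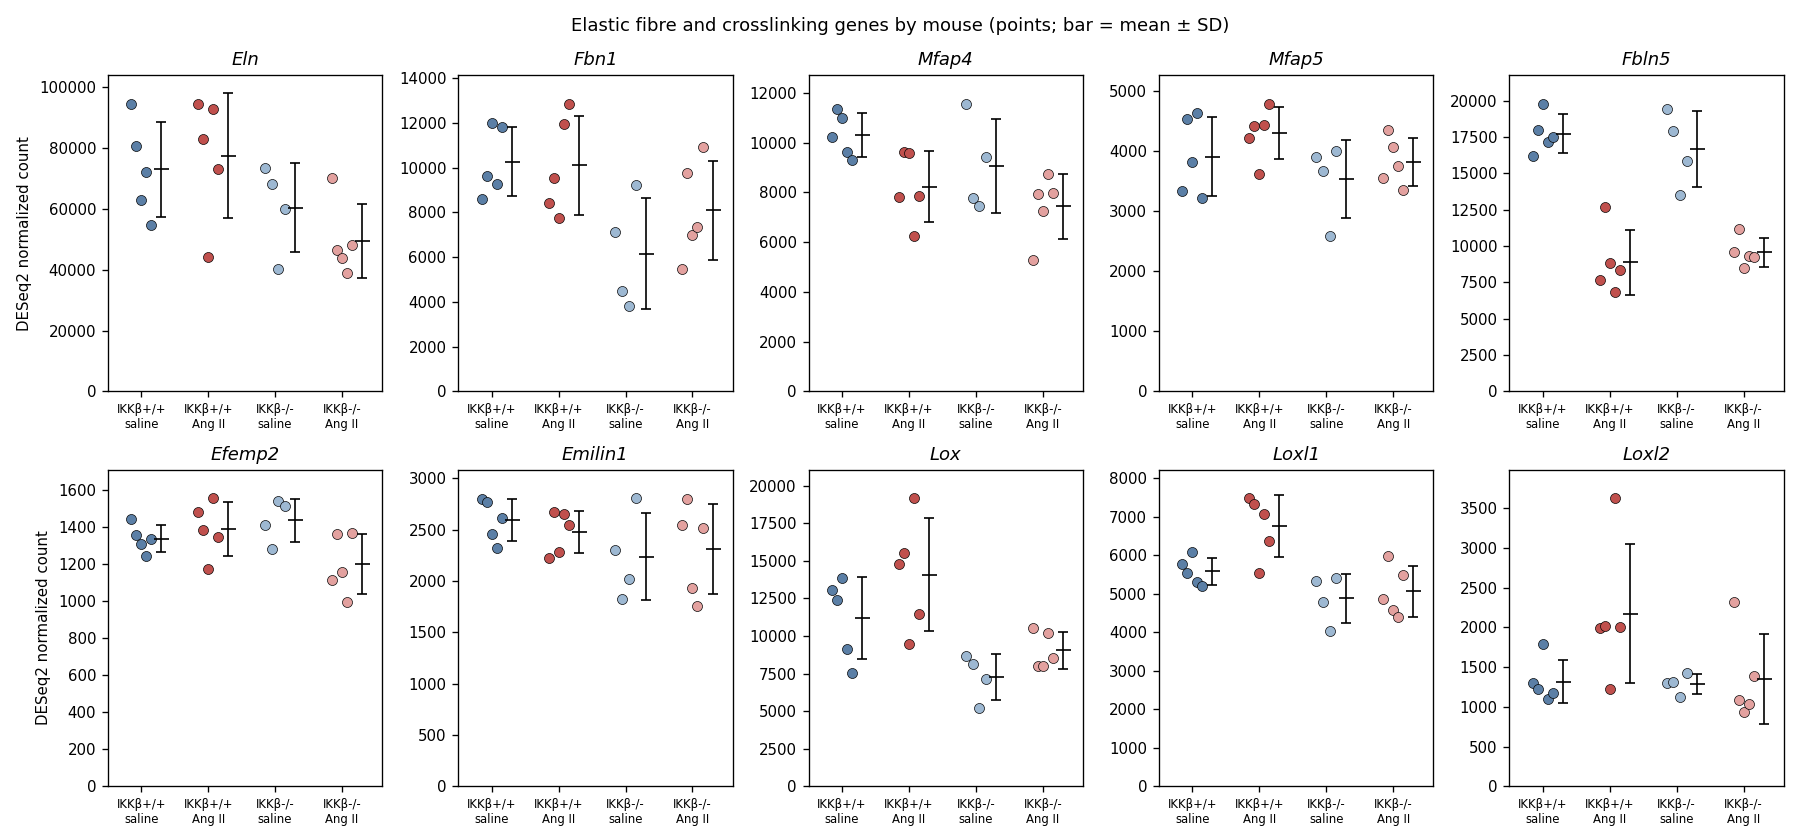
Normalized counts of the 10 genes in each mouse (points) of the 4 groups, with the mean and SD of the group beside them. Fbln5 is the panel in which both Ang II groups lie wholly below both saline groups. In the Loxl1 and Loxl2 panels 4 of 5 Ang II-treated IKKβ+/+ mice lie above the saline-infused ones.

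In IKKβ-/- mice, Fbln5 was again the 1 gene of the 10 that passed with Ang II. It was at 19441, 17929, 13474 and 15818 normalized counts in the 4 saline-infused mice and at 9575, 11144, 8506, 9333 and 9230.0 in the 5 Ang II-treated mice. The groups did not overlap here either. Fbln5 fell by 0.79 on the log2 scale (SE 0.154, 95% confidence interval -1.12 to -0.47, limma adjusted p = 0.0102), from 16666 ± 2595 (SD, n = 4) to 9558 ± 972 (SD, n = 5). Of all genes, 5.29% passed in this comparison, 2.69% as lower, and 2.88% had groups that did not overlap with Ang II lower. The call held without any 1 of the 9 mice and was lost with the adipocyte score (log2 change -0.74, limma adjusted p = 0.269) or the clock score (-0.84, limma adjusted p = 0.208) as a covariate. With these covariates 16 and 20 of all genes passed.

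The other 9 genes did not pass with Ang II in IKKβ-/- mice. Fbn1 was at 7101, 4479, 3837 and 9209 normalized counts with saline and at 5457, 9744, 6967, 7332 and 10939.5 with Ang II, overlapping ranges with a log2 change of 0.44 (95% confidence interval -0.06 to 0.93, limma adjusted p = 0.348). Efemp2 had a log2 change of -0.26 (-0.48 to -0.04, limma adjusted p = 0.195), Eln of -0.28 (-0.83 to 0.26) and Mfap4 of -0.28 (-0.62 to 0.05). Lox had a log2 change of 0.33 (-0.11 to 0.77), close to its value in IKKβ+/+ mice. Loxl1 and Loxl2 had log2 changes of 0.05 (-0.20 to 0.30) and -0.01 (-0.54 to 0.52), and 1 Ang II-treated mouse, X2380, had 2322 normalized counts of Loxl2 against 936 to 1393 in the other 4. X2380 also had the lowest fibroblast score of all mice (-1.56, the next being -0.97 in X2350), and its part here was not tested. Mfap5 and Emilin1 had log2 changes of 0.12 and 0.04. The ranges of all 4 groups overlapped in both genes, with Mfap5 between 2592 and 4791 and Emilin1 between 1758 and 2805 normalized counts over the 19 mice. Efemp2 was at 1410.0, 1281, 1539 and 1511 with saline and at 1116, 1364, 1158, 996 and 1370.2 with Ang II, and 3 of the 5 Ang II-treated mice lay below all saline-infused ones.

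The difference of the Ang II effect between genotypes was tested itself, and none of the 10 genes passed. Nor did any of the 14845 genes (0%), although 1654 had an unadjusted p under 0.05 with limma, and edgeR and DESeq2 called 3 and 279 genes, none of them among the 10. Without mouse X2356, 79 genes passed with limma, again none of the 10. For Fbln5 the difference, IKKβ-/- minus IKKβ+/+, was 0.23 on the log2 scale (95% confidence interval -0.21 to 0.68, limma adjusted p = 0.685). The interval is compatible with an Ang II effect on Fbln5 of like size in both genotypes. It is also compatible with an effect that is weaker, or somewhat stronger, in IKKβ-/- mice. The largest difference in size was that of Loxl2, -0.67 (-1.40 to 0.06, limma adjusted p = 0.476), and the smallest unadjusted p was that of Efemp2 (0.0422, difference -0.31, -0.61 to -0.01, limma adjusted p = 0.433). For Loxl1 the difference was -0.22 (-0.56 to 0.12), for Eln -0.34 (-1.09 to 0.40), and for Lox 0.01 (-0.60 to 0.61). Without mouse X2356 that of Eln was -0.54. The 10 smooth muscle markers all had a negative difference here, with a median of -0.56 and none passing.

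Without Ang II, 1 of the 10 genes passed between the genotypes, Fbn1. It was at 8606, 9623, 11972, 9285 and 11832 normalized counts in saline-infused IKKβ+/+ mice and at 7101, 4479, 3837 and 9209 in saline-infused IKKβ-/- mice. The groups overlapped by 1 mouse, X2409, which lay among the IKKβ+/+ values, and the other 3 lay below all of them. Fbn1 was lower by 0.81 on the log2 scale in IKKβ-/- mice (log2 difference -0.81, SE 0.238, 95% confidence interval -1.31 to -0.32, limma adjusted p = 0.0779), at 6157 ± 2477 (SD, n = 4) against 10264 ± 1541 (SD, n = 5). Of all genes, 5.47% passed here, 2.07% as lower in IKKβ-/- mice. The call was lost with the edgeR quasi-likelihood test (adjusted p = 0.107), with the adipocyte, fibroblast or clock score as a covariate (log2 differences -0.97, -0.64 and -0.84, limma adjusted p = 0.121, 0.187 and 0.479), and without any 1 of 8 of the 9 mice. It held without mouse X2409. Over the mice left out the log2 difference ranged from -1.04 without X2409 to -0.62 without X2406. X2406 had the fewest reads on genes (11382573), and 1 read equalled 1.80 normalized counts in it, beside 0.67 to 1.61 in the other mice. It was the lowest saline-infused IKKβ-/- mouse for Fbn1 and also for Eln, Fbln5, Mfap4, Mfap5, Lox, Loxl1 and Loxl2. The part of its depth in these values was not tested.

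Among the other 9 genes, Lox was closest to the threshold with saline. It was at 13069.8, 12413, 13883, 9100.4 and 7517 normalized counts in IKKβ+/+ mice and at 8651, 8134, 5189 and 7107 in IKKβ-/- mice, a log2 difference of -0.61 (95% confidence interval -1.05 to -0.17, limma adjusted p = 0.121). A single IKKβ+/+ mouse, X2378, lay within the IKKβ-/- range. Over the mice left out the log2 difference of Lox ranged from -0.75 without X2378 to -0.46 without X2406. Fbln5 did not pass (log2 difference -0.10, -0.42 to 0.22), nor did Eln (-0.28, -0.83 to 0.26). The median log2 difference of the 10 genes was -0.20, beside -0.02 over all genes. This comparison shares its saline-infused mice with the Ang II comparisons of both genotypes, so a low value in a saline group enters both.

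With Ang II, none of the 10 genes passed between the genotypes, and 0.128% of all genes did. At an unadjusted p under 0.05 limma had 5 of the 10, namely Eln, Efemp2, Lox, Loxl1 and Loxl2, and 2118 of all genes. DESeq2 called Eln, Lox and Loxl1 as lower in IKKβ-/- mice while edgeR called none of the 10. Over the whole table DESeq2 called 521 and edgeR 16 of all genes, beside 19 with limma. The log2 difference was negative for 9 of the 10 genes, with a median of -0.27 beside -0.01 over all genes. Smooth muscle markers were on the same side, with 10 of 10 negative, a median of -0.21 and none passing (sum 512107 to 705719 in IKKβ+/+ and 348464 to 617858 in IKKβ-/- mice), and their part in the result was not tested. Loxl1 was at 7472, 7318, 5535, 7059 and 6363 normalized counts in IKKβ+/+ mice and at 4849, 5973, 4569.7, 4403 and 5487 in IKKβ-/- mice (log2 difference -0.42, 95% confidence interval -0.65 to -0.18, limma adjusted p = 0.162). Lox was at 14778, 15488, 9493, 19156 and 11454 against 10542, 8028, 7996, 10198 and 8506 (log2 difference -0.60, -1.02 to -0.19, limma adjusted p = 0.212). In both genes the overlap came from mouse X2356, the lowest of the IKKβ+/+ mice and the library with the neuronal markers.

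In Eln the overlap also came from mouse X2356. Eln was at 70199, 46440.1, 43853, 38718 and 48068 normalized counts in Ang II-treated IKKβ-/- mice, and the IKKβ+/+ mice other than X2356 (44019) lay above all 5, at 72963 to 94507 (log2 difference -0.63, 95% confidence interval -1.14 to -0.11, limma adjusted p = 0.268). Loxl2 had a log2 difference of -0.68 (-1.18 to -0.18, limma adjusted p = 0.225), and Efemp2 of -0.21 (-0.42 to -0.01, limma adjusted p = 0.341). Fbln5, the gene that fell with Ang II in both genotypes, had the 1 positive value, 0.14 (-0.17 to 0.44). Without mouse X2356, Eln (limma adjusted p = 0.0863), Lox (0.0753), Loxl1 (0.0613) and Loxl2 (0.074) all passed as lower in IKKβ-/- mice. The calls rose over the whole table with them, from 19 to 553 of all genes in either direction. Without X2380 Loxl2 passed, and without X2383 Loxl1 did, with 285 and 116 of all genes passing. X2380, the mouse with the lowest fibroblast score, was also the highest of the IKKβ-/- mice here for Eln (70199).

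**Figure D3:**
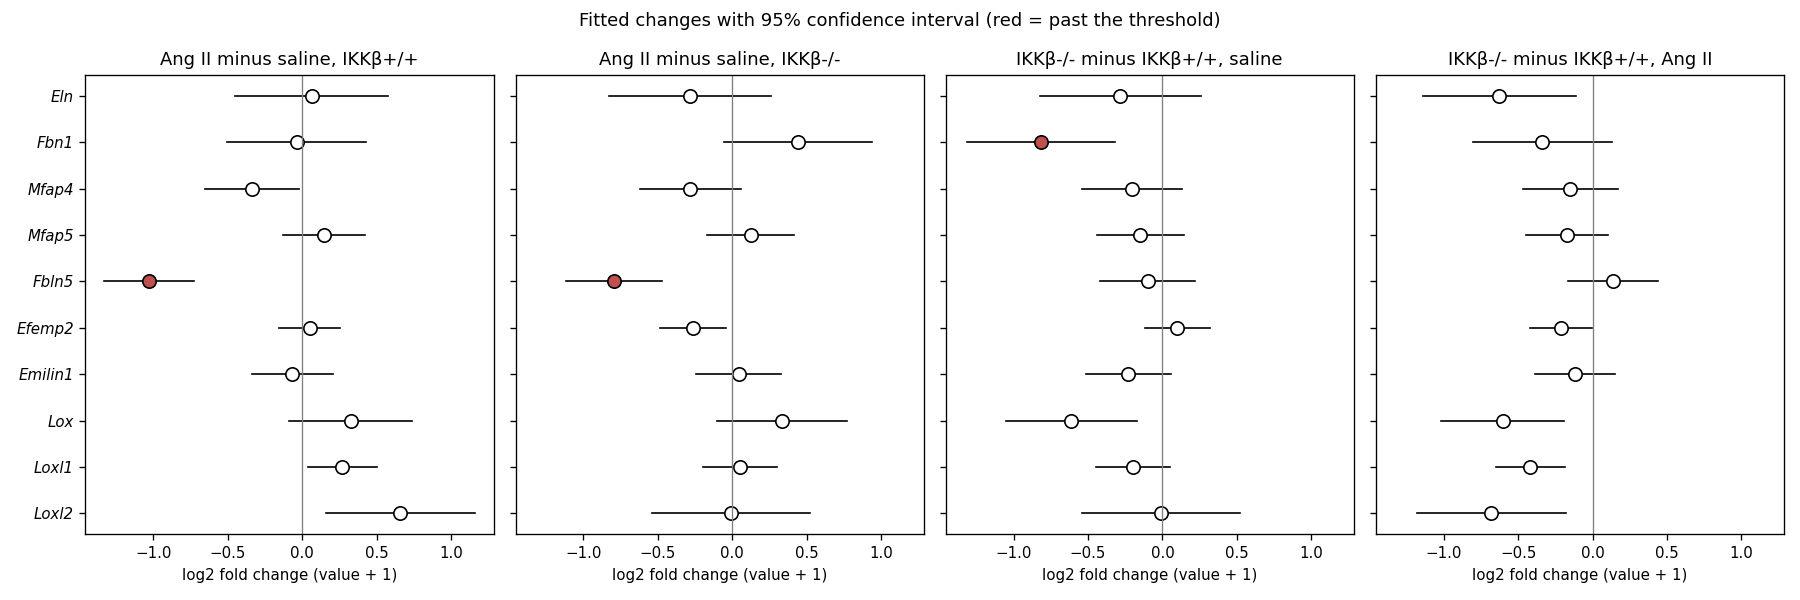
Fitted log2 change of each of the 10 genes with its 95% confidence interval in 4 comparisons, filled red where the gene passed. Fbln5 is filled in both Ang II comparisons (-1.03 and -0.79) and Fbn1 in the comparison of genotypes with saline (-0.81). In the last panel no gene is filled and the intervals of Eln, Efemp2, Lox, Loxl1 and Loxl2 lie below 0.

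Markers of other cells moved with some of these groups. Beside the counts below, 8.66% of all genes passed with Ang II in IKKβ+/+ mice and 5.29% in IKKβ-/- mice. Between the genotypes with saline, 5.47% did. With Ang II in IKKβ+/+ mice 3 of 10 smooth muscle markers passed as higher (sum 379716 to 504150 with saline and 512107 to 705719 with Ang II), 2 of 11 adventitial fibroblast markers as lower (84098 to 109200 and 35982 to 102954) and 3 of 11 endothelial markers as lower. In IKKβ-/- mice 8 of 10 tested white adipocyte markers passed as higher with Ang II (sum of 11 markers 3952 to 5880 with saline and 6897 to 31855 with Ang II), while 1 of 11 fibroblast markers did. The decrease of Fbln5 in IKKβ+/+ mice held with the fibroblast score as a covariate (log2 change -1.0, limma adjusted p = 0.00292) and that in IKKβ-/- mice did too (-0.80, limma adjusted p = 0.0063). With the adipocyte score as a covariate the IKKβ+/+ call held and the IKKβ-/- call was lost (log2 change -0.74, limma adjusted p = 0.269). Smooth muscle and endothelial markers were not used as covariates, so their part was not tested. Between genotypes with saline, where Fbn1 was lower, no fibroblast marker passed but all 11 had a negative sign (sum 84098 to 109200 and 64151 to 88739), and 2 of 12 macrophage markers passed as lower. Clock genes also moved: of 8 genes of the evening arm, 7 passed as higher in saline-infused IKKβ-/- than IKKβ+/+ mice and 6 as lower with Ang II in IKKβ-/- mice. No marker of smooth muscle, fibroblast or endothelium was under 1 normalized count in every mouse of a group, and of the mesothelium markers 3 of 6 were in the table, none above the filter.

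Genes that work beside the 10 were followed in 7 lists. Beside their counts, 8.66% of all genes passed with Ang II in IKKβ+/+ mice and 5.29% in IKKβ-/- mice. Between the genotypes with saline, 5.47% of all genes passed. In the microfibril and LTBP list, 3 of 11 tested genes passed with Ang II in IKKβ+/+ mice. Ltbp4, which binds fibulins and is needed for elastic fibre assembly, fell by 0.75 on the log2 scale (SE 0.161, limma adjusted p = 0.0136), from 16702 to 21917 normalized counts with saline to 8731 to 14375 with Ang II, without overlap. Ltbp3, a latent TGF-β binding protein, fell by 0.46 (limma adjusted p = 0.0428), and Adamtsl2, which binds fibrillin-1 and Ltbp1, rose by 1.06 (limma adjusted p = 0.0653). In IKKβ-/- mice Ltbp3 again fell, by 0.48 (limma adjusted p = 0.0554), Adamtsl5 fell by 0.68 (limma adjusted p = 0.00973) and Adamtsl2 rose by 1.44 (limma adjusted p = 0.0279). Ltbp4 was also lower in saline-infused IKKβ-/- mice, with a log2 difference of -0.69 (limma adjusted p = 0.0533). The medians of the list were -0.19 and -0.20 in the Ang II comparisons, beside 0.01 and -0.0029 over all genes.

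In the list of other fibulins, emilins and binding partners, 2 of 11 tested genes passed with Ang II in IKKβ+/+ mice, both lower. Fbln7, a further fibulin, fell by 1.40 on the log2 scale (limma adjusted p = 0.0122), from 742 to 1330 normalized counts with saline (lowest and highest of 5 mice) to 257 to 553 with Ang II. Mmrn2, an endothelial multimerin of the emilin family, fell by 1.04 (limma adjusted p = 0.0507). Mmrn1 alone passed in IKKβ-/- mice, as higher, with 1.93 to 171 normalized counts in saline-infused and 48.1 to 1229 in Ang II-treated mice, which overlapped. The medians of this list were -0.20 and 0.16 with Ang II in the 2 genotypes.

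Among lysyl oxidase paralogs, activators and copper carriers, 5 of 14 tested genes passed with Ang II in IKKβ+/+ mice. Loxl4, a further lysyl oxidase, rose by 1.0 (limma adjusted p = 0.033), from 99.2 to 171 normalized counts to 192 to 470.1. Postn, which encodes periostin, a matrix protein that helps to activate Lox, rose by 0.84 (limma adjusted p = 0.0199), and Fmod, which encodes the collagen-binding fibromodulin, fell by 1.05 (limma adjusted p = 0.0713). Loxl3 (0.47) and the copper importer Slc31a1 (0.70) also rose and are named because of the count. None of the 14 passed with Ang II in IKKβ-/- mice. Between the genotypes with saline, Atp7a, the copper pump that supplies lysyl oxidases, was lower by a log2 difference of -0.93 (limma adjusted p = 0.0767). The medians were 0.19 and 0.22 with Ang II in the 2 genotypes.

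Collagen lysine and proline modification had 5 of 17 tested genes past the threshold with Ang II in IKKβ+/+ mice. Tgm2 (transglutaminase 2) rose by 0.89, Plod2, the lysyl hydroxylase of collagen telopeptides, rose by 0.48 and P3h3 fell by 0.61, while Fkbp10 (0.38) and Plod1 (0.30) rose and are named because of the count. In IKKβ-/- mice P3h3 fell by 0.43 and Plod3 and Plod1 rose by 0.39 and 0.35, and Crtap, named because of the count, fell by 0.29. With saline, Plod3 (log2 difference -0.39) and P3h3 (-0.33) were lower in IKKβ-/- mice.

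Proteases that degrade elastin gave 1 of 9 tested genes with Ang II in IKKβ+/+ mice, near the share of all genes (8.66%). Ctsk (cathepsin K) fell by 0.85 (limma adjusted p = 0.095). With saline, Mmp2 (log2 difference -0.91) and Ctss, cathepsin S (-0.86), were lower in IKKβ-/- mice. Of 8 protease inhibitors, Timp1 rose by 1.68 (limma adjusted p = 0.015), from 296 to 358 normalized counts with saline to 419 to 2861 with Ang II, Timp4 rose by 1.16, Timp2 fell by 0.47, and Cstb, named because of the count, rose by 0.38, all in IKKβ+/+ mice. Slpi passed between genotypes with saline on 4 to 27 reads in IKKβ+/+ and 0 or 1 read in IKKβ-/- mice, so no fold is given. Of 16 genes of integrins, the elastin receptor and TGF-β, Itga5 and Itgb1, which together form the fibronectin receptor, rose by 1.72 (limma adjusted p = 0.0148) and 0.64 (limma adjusted p = 0.063) with Ang II in IKKβ+/+ mice, none passed in IKKβ-/- mice, and Glb1, the gene of the elastin-binding protein, was lower with saline in IKKβ-/- mice (log2 difference -0.62). No gene of the 7 lists passed between the genotypes with Ang II or in the test of the difference between the effects.

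**Figure D4:**
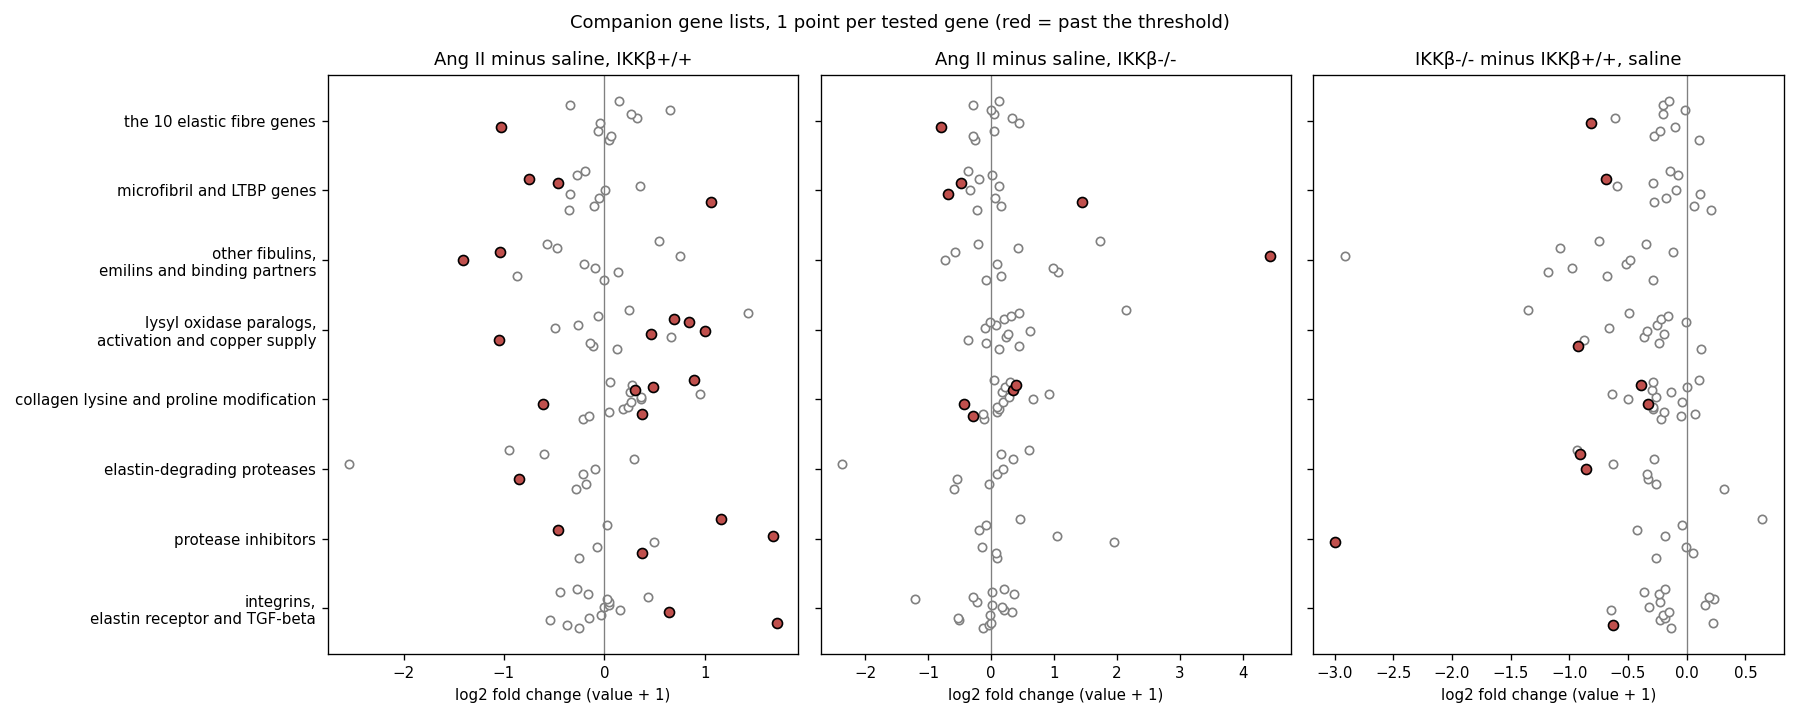
Log2 change of every tested gene of the 7 lists and of the 10 genes in 3 comparisons, each panel with its own x axis, filled red where the gene passed. In the IKKβ+/+ panel, passing genes lie on both sides of 0 in the microfibril, lysyl oxidase, collagen and inhibitor lists, while those of the fibulin and protease lists lie below 0.

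Within the groups the 10 genes varied together in part. Over the 19 mice, deviations of log2 values from the group means had a positive Pearson r in 38 of 45 pairs of genes, with a median of 0.31 and a range of -0.54 to 0.74. The closest pairs were Eln with Lox (0.74), Lox with Loxl2 (0.67) and Eln with Loxl2 (0.65), whereas Mfap4 and Loxl2 (-0.54) went apart. Fbln5 and Efemp2, the fibulins of the set, had an r of -0.22. These values describe mice that share their library preparation and scaling. The share of positive pairs among other genes was not computed, so the level of this set cannot be set against it. The genes outside the 10 whose deviations were most like those of Eln were Psmg1 (r = 0.91), Bak1 (0.89) and Rab10 (0.87), and most like those of Fbln5 were Pamr1 (0.76), Ephb4 (0.76) and Wnt16 (0.73), out of 11425 genes with a mean of at least 50 normalized counts.

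**Figure D5:**
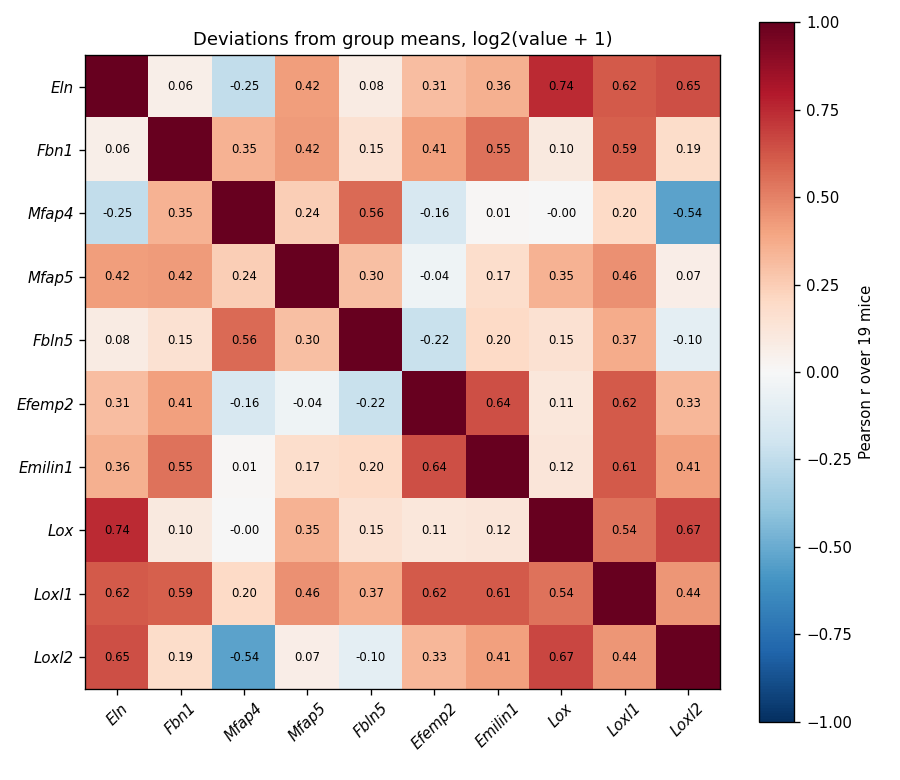
Pearson r between the 10 genes over 19 mice, computed on deviations of log2(value + 1) from the group means. Eln with Lox is the highest pair (0.74), Efemp2, Emilin1 and Loxl1 are also at 0.61 to 0.64 with each other, and Mfap4 with Loxl2 is the lowest pair (-0.54).

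The positions of the genes as the table gives them (GRCm38) are chromosome 5, 134702593 to 134747323, for Eln, chromosome 2, 125300594 to 125507993, for Fbn1 and chromosome 12, 101746565 to 101819055, for Fbln5. Eln, Lox and Loxl2 overlap annotated antisense genes and Fbn1, Efemp2 and Mfap4 overlap a coding gene of the other strand. The libraries were stranded but the strand setting of the counting is not given in the sources used here, so reads of these 6 genes may be shared with their partners, whereas Fbln5, Emilin1, Mfap5 and Loxl1 have no such overlap.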

How the data were processed

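The authors trimmed single-end reads of stranded poly(A) libraries (Trimmomatic 0.35), mapped these on GRCm38 (STAR 2.7.1a) with Gencode annotation, counted them and normalized the counts with DESeq2 1.30.1 (RSEM is also named in the submitters' processing notes). The deposited signal values are these DESeq2-normalized counts, reads divided by a size factor per mouse. All values (100.0%, tolerance 0.01) were whole multiples of 1 read, so reads were recovered.

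A gene was tested where 4 mice or more had 10 or more normalized counts (14845, with 5563 left out). Log2(value + 1) was fitted with limma 3.58.1 (trend) in R 4.3.3, with a mean for each of 4 groups and all 19 mice, two-sided, with Benjamini-Hochberg adjustment over all genes tested. Further lists name passing genes, at most 3 per list and comparison with the largest change, and other genes only where a small count asks for them, chosen after their values were seen. The 10 genes and the lists were chosen with earlier results of these data known. Scores are the mean of a marker list's log2 values per mouse, each gene first centred on its mean over the mice. The clock score is the score of the evening arm minus that of the morning arm of clock genes.

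On simulated data limma recovered 130 of 200 changed genes in the IKKβ+/+ Ang II comparison and called 9 unchanged ones. The changed genes had several sizes of fold change, so the recovery is pooled and gives no rate for any 1 size. Exon lengths came from Gencode M21, whose bounds of these genes equal those of the table, and promoters from RefSeq. Depth of 11382573 to 19906694 reads sets the counting error. edgeR 4.0.16 and DESeq2 1.42.0 were alternatives on the recovered reads.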

Additional observations from a re-analysis of the deposited data

How the results depend on the processing

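The count of passing genes among the 10 was 1 with Ang II in IKKβ+/+ mice and became 3 with array quality weights, 2 with edgeR, 2 with DESeq2 and 2 with the adipocyte score as a covariate, the additions being Loxl2 in each and Loxl1 with the weights. Leaving out a mouse gave 1 to 3. In IKKβ-/- mice it was 1, became 0 with the adipocyte or clock score, and was 1 without any mouse. Between genotypes with saline it was 1 and became 2 with quality weights or DESeq2 (Lox added), and 0 with edgeR, an adjusted p under 0.05, and the adipocyte, fibroblast or clock score, with 0 to 1 over mice left out (without mouse X2378 it was Lox that passed, not Fbn1). With Ang II it was 0, became 3 with DESeq2 and ranged from 0 to 4 over mice left out, with 4 without mouse X2356. The count for the difference of the Ang II effect was 0 in all settings. The cause of these moves was not tested. A pseudocount of 4, no filter, only the compared groups, TMM scaling and a fold above 1.5 changed none of the counts for the 10 genes. Ikbkb stayed lower in IKKβ-/- mice in every setting, by 21.9% to 31.9%. Over all genes, the number passing with Ang II in IKKβ+/+ mice ranged from 374 with the clock score to 2074 with quality weights, beside 1286, and in IKKβ-/- mice from 16 with the adipocyte score to 1164 with DESeq2, beside 785. Between genotypes with saline it ranged from 0 with the clock score to 1902 with quality weights, beside 812, and with Ang II from 0 to 521, beside 19.

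No paired analysis was possible because the labels give each mouse its own number and no number is shared between groups. With 4 or 5 mice in a group, the intervals of Eln and Loxl2 stay wide. For the 10 genes in each of 4 groups, 40 sets of values in all, none held a mouse past the limit of Dixon's test, which covers these genes alone: by neuronal markers mouse X2356 stood apart.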
